A study of Rattus norvegicus with 36 samples.

Results

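Gene expression in whole lung was compared between Brown Norway and Lewis rats on postnatal day 7 (PN7). The comparison rests on the 4 arrays titled Brown Norway PN7 and the 4 titled Lewis PN7, which are 8 of the 36 arrays of the series. The series profiled whole-lung RNA of 3 inbred rat strains, Brown Norway, Lewis and Fisher, at PN1, PN7 and PN14 on one-colour Illumina beadchips, and asked how inherited differences bear on the risk of asthma while the lung develops. The labels give for each array the strain, the age and the tissue, and they name no treatment, allele, sex or litter. They also do not say whether replicates were separate animals, and if they were not, the spread behind each p-value is technical.

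On the days studied here the rat lung is still being built. After birth the walls of the terminal air sacs grow secondary septa, which divide them into alveoli, and this phase combines cell division, elastin and collagen deposition and growth of the capillary bed with the rise of surfactant-secreting type II cells and gas-exchanging type I cells. Brown Norway rats are a common model of allergic airway disease because they readily make IgE, whereas Lewis rats respond more weakly to the same allergens.

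All Brown Norway PN7 arrays and Lewis PN7 replicates 2 to 4 were hybridised on the same slide, and Lewis PN7 replicate 1 on the slide that held most PN1 arrays. The Brown Norway arrays occupied other positions on the slide than the Lewis arrays, so position and strain cannot be told apart. Between 9634 and 10549 of 22226 probes had a detection p under 0.01 on these 8 arrays, and their median raw signal was 212.8 to 259.8. Over the 11339 probes tested, replicates correlated at 0.996 to 0.998 within Brown Norway and at 0.99 to 0.995 within Lewis, where replicate 3 stood furthest from the others (0.99 to 0.992), and arrays of different strains at 0.981 to 0.987. Of 14 markers of lung cell types, 11 had a named probe, and each of these was detected on all 8 arrays, among them surfactant, club cell and alveolar type I genes. Pecam1, Acta2 and Foxj1 had no named probe. Because whole lung was used, fewer cells of a type and less RNA per cell cannot be told apart in any difference below.

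At PN7, 1728 of 11339 probes (15.2%) differed between the strains at an adjusted p under 0.05 in limma, 906 higher (7.99%) and 822 lower (7.25%) in Brown Norway. The level of a probe is given throughout as the log2 of its background-corrected, quantile-normalised intensity, and a difference as the Brown Norway mean minus the Lewis mean. Most differences were small. The median size of a called difference was 0.311 on the log2 scale, and 1427 of the 1728 were within 1.5-fold. A fold of at least 2 was reached by 97 probes (0.855%), 61 higher (0.538%) and 36 lower (0.317%). In all 97 the levels of the 4 Brown Norway and 4 Lewis arrays did not overlap, which choosing by adjusted p and fold makes likely in advance. The 97 included 63 probes with a gene symbol, and 79 of the 97 also differed in the same direction at both PN1 and PN14, whereas 10 differed at neither. Over all tested probes, 31% differed at PN1 and 13.6% at PN14 in either direction. The balance of directions depended on the scaling: with each array scaled to its median in place of quantile normalisation, 940 probes differed, 796 higher and 144 lower, and the share of higher probes among those called was 84.7% in place of 52.4%.

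**Figure D1:**
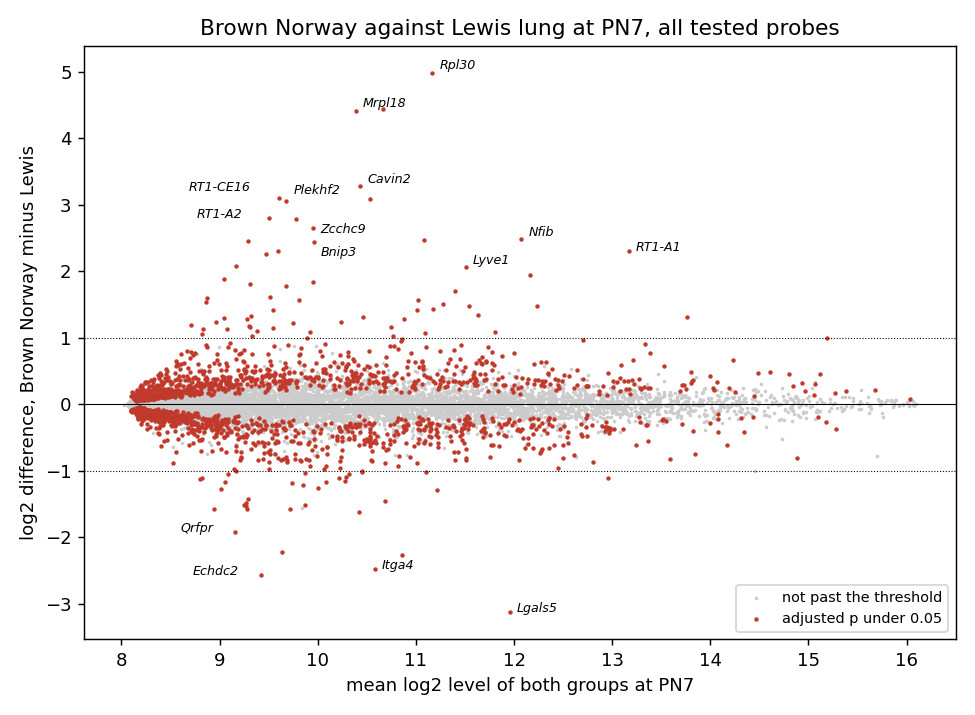
Each point is one of the 11339 tested probes, placed by the mean log2 level of both groups at PN7 (horizontal axis) and by the log2 difference of Brown Norway minus Lewis (vertical axis, 4 arrays per group). Red points are the 1728 probes with an adjusted p under 0.05, dotted lines mark a fold of 2, and the tail above the upper line is longer and fuller (61 probes) than that below the lower one (36 probes).

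Genes of the class I histocompatibility complex were among the furthest apart. Class I molecules carry peptides to the cell surface, where CD8 T cells read them, and in the rat their heavy chains are encoded in the RT1 region, which differs greatly between inbred strains. RT1-A1 stood at 14.18, 14.48, 14.18 and 14.43 in Brown Norway replicates 1 to 4 and at 11.85, 12.11, 12.09 and 12.03 in Lewis replicates 1 to 4, a 4.93-fold difference (log2 2.30, SE 0.14, adjusted p = 8.91e-14). RT1-CE16 stood at 11.03, 11.34, 10.94 and 11.33 in Brown Norway and at 8.05, 8.02, 8.11 and 8.04 in Lewis, where it was detected on 0 of 4 arrays. It was therefore at least 8.07-fold higher in Brown Norway (adjusted p = 1.49e-19), a bound that sets the bright group against the lowest signal counted as detected. RT1-A2 was spread more widely, at 10.38, 11.38, 10.69 and 11.16 in Brown Norway against 8.10, 8.07, 8.14 and 8.07 in Lewis, again with 0 Lewis arrays detected and a fold of at least 6.75 (adjusted p = 6.69e-09). In each of the 3 genes every Brown Norway array lay above every Lewis array by more than 1 log2 unit, and Fisher, at 12.33, 8.32 and 8.09 on average, lay near Lewis. These heavy chains are close copies of each other and vary between strains, so the probes may share signal among them, and a strain's sequence under a probe can alter its reading. The sequences of the strains were not compared here.

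Within the whole class I pathway, genes passed in both directions. Of 26 measured genes of class I presentation, the 3 heavy chains above included, 9 were higher and 3 lower in Brown Norway (7.99% and 7.25% over all probes), with a median difference of 0.13 against -0.004 over all tested probes. RT1-T24-4 was 1.97-fold higher (log2 0.98, SE 0.13, adjusted p = 1.11e-06), with Brown Norway arrays at 11.22 to 11.43 and Lewis arrays at 10.25 to 10.51. Psmb8, a catalytic subunit of the immunoproteasome that cuts peptides for class I, was 1.78-fold higher (adjusted p = 0.0157), and its call was lost without Brown Norway replicate 2 or without Lewis replicate 3. RT1-N3 and RT1-S3 were higher by 0.74 and 0.41 on the log2 scale. Tapasin (Tapbp) and its relative Tapbpl, which load and edit the peptides, were lower, at -0.57 and -0.61, and none of the 3 lower members passed under median scaling. Among 7 measured class II genes, RT1-DMb, a chain of the peptide exchanger for class II, was 1.45-fold lower in Brown Norway (adjusted p = 1.53e-06), and its call was also lost under median scaling.

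Several genes outside the RT1 region had differences as large. Cavin2, a coat protein of caveolae, which are abundant in lung endothelium, stood at 12.16, 12.001, 12.06 and 12.06 in Brown Norway and at 8.66, 8.96, 8.85 and 8.70 in Lewis. The fold was 9.70 (log2 3.28, SE 0.15, adjusted p = 8.87e-17), and Fisher, at 8.81, sat with Lewis. Nfib, a transcription factor that mouse lungs need to mature, stood at 13.32, 13.26, 13.26 and 13.42 in Brown Norway and at 10.72, 10.91, 11.07 and 10.61 in Lewis, a 5.59-fold difference (log2 2.48, SE 0.14, adjusted p = 4.98e-14). Both genes were far apart with little spread among replicates of either strain. Lyve1, the hyaluronan receptor of lymphatic endothelium and of some tissue macrophages, stood at 12.52, 12.55, 12.53 and 12.55 in Brown Norway and at 10.53, 10.55, 10.63 and 10.20 in Lewis. It was 4.17-fold higher (log2 2.06, SE 0.13, adjusted p = 3.76e-13), and Fisher, at 11.38, lay between the strains without reaching either.

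The highest difference of all named genes was that of Rpl30, a protein of the large ribosomal subunit. It stood at 13.59, 13.69, 13.60 and 13.76 in Brown Norway and at 8.26, 8.61, 8.81 and 9.02 in Lewis, a 31.7-fold difference (log2 4.99, SE 0.28, adjusted p = 1.62e-14). Mrpl18, of the mitochondrial ribosome, was 21.4-fold higher (log2 4.42, SE 0.09, adjusted p = 2.34e-25), with Brown Norway at 12.53 to 12.70 and Lewis at 8.09 to 8.29, where 2 of 4 arrays detected it. In both genes it was Lewis that stood alone, since Fisher averaged 13.56 and 12.44. The same held for Plekhf2, an endosomal protein detected on 1 of 4 Lewis arrays (log2 3.06), for Zcchc9 (2.65) and for Bnip3, a mitochondrial protein of mitophagy and a target of hypoxia signalling (2.44), whose Fisher means were 11.10, 10.82 and 11.37 beside Brown Norway means of 11.21, 11.28 and 11.18. Pxmp4, a peroxisomal membrane gene, was at least 3.59-fold higher in Brown Norway and detected on 0 Lewis arrays, while Ly6i, Ndufaf5, which assembles complex I, and Umps, which completes pyrimidine synthesis, were higher by 2.31, 1.84 and 1.82 on the log2 scale. For genes outside the RT1 region too, higher or lower, a strain's sequence under a probe can alter its reading. That sequence was not checked for Rpl30, Mrpl18 or any other gene.

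Among the genes lower in Brown Norway, Lgals5, a rat galectin found on reticulocytes, was furthest apart. It stood at 9.77, 11.08, 10.63 and 10.09 in Brown Norway and at 13.43, 13.72, 13.67 and 13.27 in Lewis, an 8.74-fold difference (log2 -3.13, SE 0.29, adjusted p = 1.27e-09). Its Brown Norway arrays were far more spread than its Lewis arrays, and Fisher averaged 10.95. Itga4, the integrin chain through which lymphocytes, monocytes and eosinophils leave vessels, stood at 9.23, 9.45, 9.26 and 9.43 in Brown Norway and at 11.94, 11.72, 11.79 and 11.81 in Lewis. It was 5.55-fold lower (log2 -2.47, SE 0.10, adjusted p = 1.85e-18), and Fisher, at 11.51, lay near Lewis. Echdc2, a mitochondrial gene related to enoyl-CoA hydratases, was detected on 0 of 4 Brown Norway arrays and was at least 5.87-fold lower there than in Lewis, whose arrays lay between 10.60 and 10.82. Non-overlapping groups were a condition for choosing the genes of either end, so the lack of overlap is no result about them.

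The remaining genes of that end included Qrfpr, a neuropeptide receptor (log2 -1.92), Ly6c, a surface protein of monocytes (-1.58), and Gchfr, the feedback regulator of GTP cyclohydrolase, which makes the cofactor of nitric oxide synthases (-1.48). Nbn, of the complex that senses DNA breaks, was lower by 1.42 and Tcf4, a helix-loop-helix transcription factor, by 1.29. Bphl, Pyroxd2, Plekhh1, Add3, Lrrc34 and Armc8 lay between -1.62 and -1.17. In Qrfpr, Nbn, Tcf4, Plekhh1 and Add3 the Fisher mean was nearer to the Brown Norway than to the Lewis mean, and in Ly6c, Gchfr and Pyroxd2 it was nearer to that of Lewis. The direction of these genes and their calls at PN7 held under each alternative run.

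**Figure D2:**
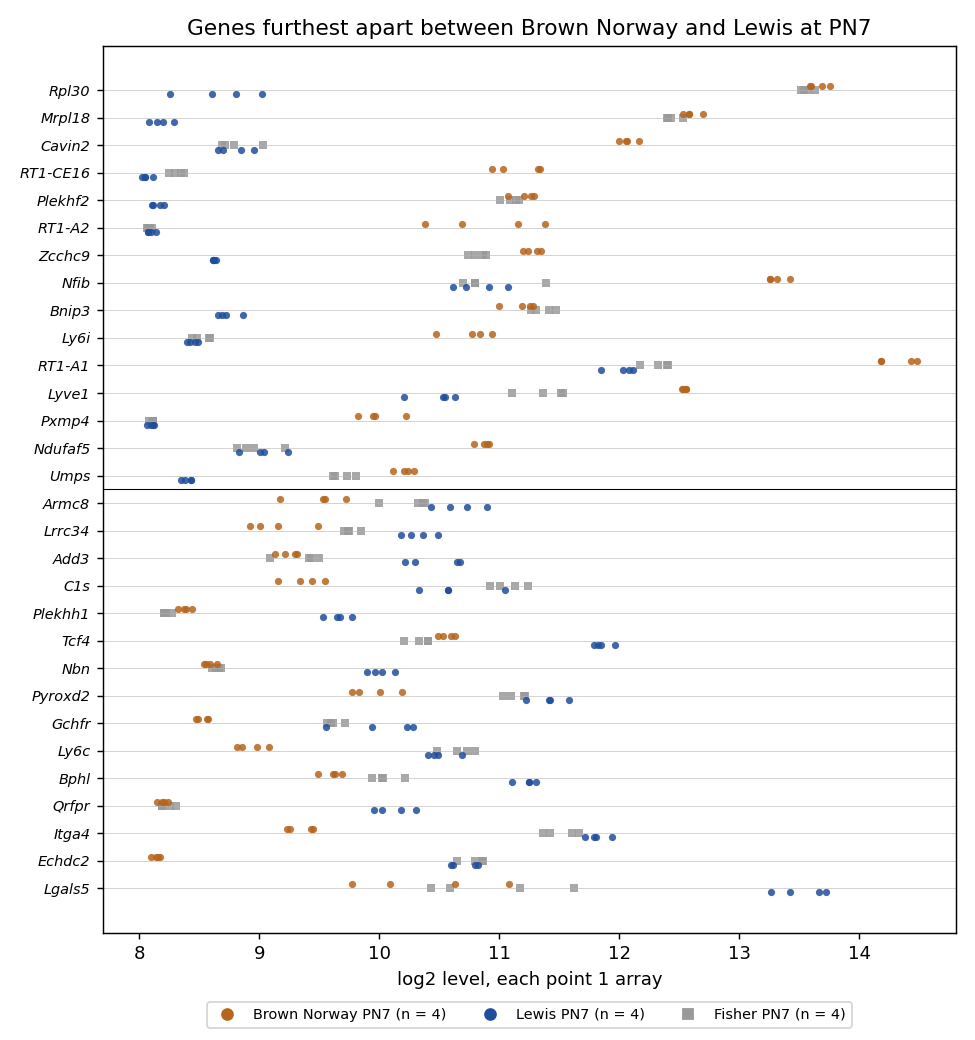
Log2 levels (horizontal axis) of the 15 genes highest and the 15 lowest in Brown Norway relative to Lewis at PN7, each point 1 array, with the 4 Fisher PN7 arrays for reference. Brown Norway and Lewis points do not overlap in any row, which was a condition for choosing these genes. The points of Lgals5 and RT1-A2 in Brown Norway are the most spread, and Fisher sits with Brown Norway in rows such as Rpl30 and with Lewis in rows such as Cavin2.

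Genes of the cell cycle were shifted upward in Brown Norway lungs. Of 50 measured genes, 24 were higher (the share over all probes was 7.99%) and 0 lower in limma, with 32 higher and 0 lower at an unadjusted p under 0.05. Of the 50 differences 49 were positive, and the median was 0.30 against -0.004 over all tested probes. The mean log2 level of the list lay between 10.39 and 10.60 on the Brown Norway arrays and between 10.03 and 10.26 on the Lewis arrays, which did not overlap. On the Fisher arrays of the same age it lay below both, between 9.36 and 9.94. Brown Norway and Lewis list means did not overlap in several other lists either. The differences were modest for each gene. Plk1, the kinase that drives entry into and passage through mitosis, stood at 9.52, 9.92, 10.01 and 9.55 in Brown Norway and at 9.28, 9.23, 9.28 and 9.07 in Lewis, 1.45-fold higher (log2 0.54, SE 0.11, adjusted p = 0.000523). Cdc20, the activator of the anaphase-promoting complex, stood at 10.80, 10.89, 10.80 and 10.67 against 10.38, 10.46, 10.06 and 9.98, 1.49-fold higher (log2 0.57, SE 0.14, adjusted p = 0.00364). Neither gene had an array of one strain within the range of the other.

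Other members that were higher belonged to each step of division. Kif20a, a kinesin of the dividing bridge, and Tpx2, which builds the spindle, were higher by 0.61 and 0.57 on the log2 scale, the checkpoint kinases Bub1 and Bub1b by 0.49 and 0.37, and the kinetochore genes Spc25, Cenpf and Cenpk by 0.46, 0.45 and 0.48. Of the genes of DNA synthesis, Tyms and Dut, which supply thymidylate, were higher by 0.35 and 0.37, Lig1, which joins DNA fragments, by 0.31, and Mcm5, a subunit of the replicative helicase, by 0.16. The proliferation marker Mki67 was 0.21 higher (adjusted p = 0.0023). How many members passed depended on the processing and on single arrays: 13 passed within the shared slide, 14 without Brown Norway replicate 2, 15 without Lewis replicate 4, 14 with only the arrays of the ages compared in the fit, and 3 in the authors' deposited log2 values, where the median of the list was 0.40. Kif20a and Tpx2 lost their calls within the shared slide and without either of those replicates, while Cdc20 passed in each of these.

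Many genes of mitosis carry a CHR element (TTTGAA) and CCAAT boxes in their promoters. These were searched on both strands of the 250 bases upstream of each RefSeq gene start (rat build GRCr8). TTTGAA occurred in 13 of the 39 cell cycle genes with a promoter in the table (33.3%) and in 16% of 27457 promoters, and CCAAT in 26 of the 39 (66.7%) and in 34.3% of all promoters. Of the 19 members with a promoter that were higher in Brown Norway, 5 held TTTGAA (26.3%) and 12 CCAAT (63.2%). A match is a description of these letters and not a shown binding site. The promoter of Cdc20, shown because it holds both motifs and because the call of this gene held in each alternative, covers the 200 bases before the start at chr5:137255800-137255999, minus strand, 5′ to 3′, with the CCAAT boxes and the TTTGAA in capitals.
Cdc20: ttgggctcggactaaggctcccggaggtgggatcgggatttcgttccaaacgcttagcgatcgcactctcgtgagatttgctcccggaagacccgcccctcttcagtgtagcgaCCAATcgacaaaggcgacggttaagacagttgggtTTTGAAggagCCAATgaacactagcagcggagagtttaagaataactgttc

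Some chaperone genes, most of them of the endoplasmic reticulum, were also higher in Brown Norway. Of 28 measured genes of heat shock and the unfolded protein response, 6 were higher (7.99% over all probes) and 0 lower in limma (3 lower at an unadjusted p under 0.05), with a median of 0.09, and in some alternatives 1 to 3 members passed as lower. Hspa5, the main chaperone of the endoplasmic reticulum, stood at 14.86, 14.96, 14.88 and 14.70 in Brown Norway and at 14.36, 14.25, 14.49 and 14.35 in Lewis, 1.40-fold higher (log2 0.49, SE 0.10, adjusted p = 0.000909). Pdia4, which forms disulfide bonds, stood at 11.27 to 11.36 against 10.65 to 10.94 (log2 0.56, SE 0.09, adjusted p = 4.72e-05). Manf, a secreted factor of the stressed reticulum, Creld2, Hspa8 and the lectin chaperone Calr were higher by 0.49, 0.46, 0.35 and 0.31. The call of Creld2 was lost without Brown Norway replicate 2 or 3 and without Lewis replicate 3 or 4. In contrast to the cell cycle genes, the Fisher arrays were closer to Brown Norway, with a Fisher mean of 14.75 for Hspa5 and 11.17 for Pdia4.

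The element ERSE (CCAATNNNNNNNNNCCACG, searched on both strands) is the classic sequence through which the unfolded protein response activates such genes. It occurred in 21 of 27457 promoters (0.0765%), in 5 of the 22 list members with a promoter in the table (22.7%), and in 3 of the 5 higher ones. Hspa5 and Creld2 are shown because their element lies within 200 bases of the start. Those bases are chr3:38452816-38453015 for Hspa5 and chr7:121789184-121789383 for Creld2, plus strand, with the fixed letters of the element in capitals; in Creld2 it runs in reverse.
Hspa5: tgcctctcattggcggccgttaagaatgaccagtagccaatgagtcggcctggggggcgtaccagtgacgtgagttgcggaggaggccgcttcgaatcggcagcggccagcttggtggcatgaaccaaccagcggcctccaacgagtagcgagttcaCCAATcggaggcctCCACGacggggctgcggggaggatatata
Creld2: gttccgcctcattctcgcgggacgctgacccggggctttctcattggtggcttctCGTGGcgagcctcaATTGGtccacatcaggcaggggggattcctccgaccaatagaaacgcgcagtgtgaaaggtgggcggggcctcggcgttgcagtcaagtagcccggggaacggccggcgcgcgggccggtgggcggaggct

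**Figure D3:**
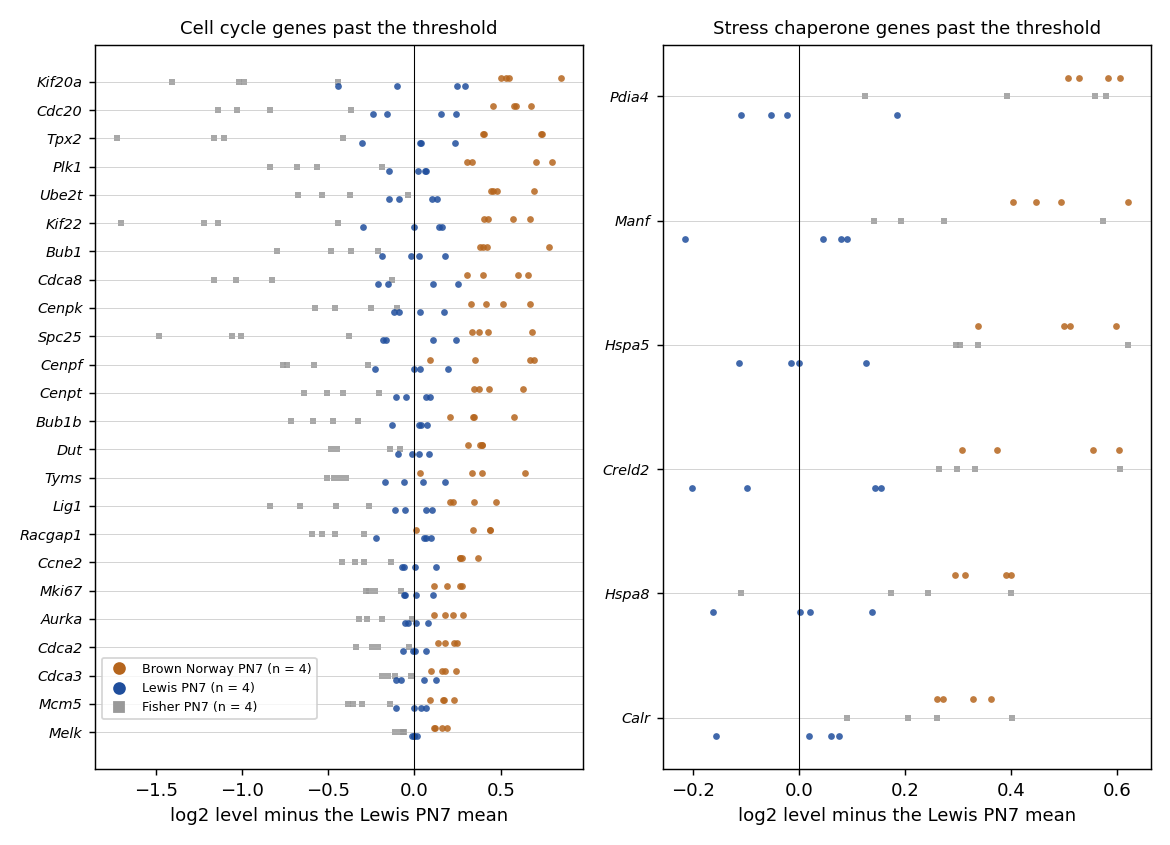
Log2 level minus the Lewis PN7 mean (horizontal axis) of the 24 cell cycle genes (left) and the 6 chaperone genes (right) that passed at PN7, each point 1 array. Brown Norway points lie right of the Lewis points in most rows, with some overlap in rows such as Tyms and Racgap1, and the Fisher PN7 arrays, shown for reference, lie left of Lewis in most cell cycle rows and right of most Lewis points in the chaperone rows.

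The genes of the airway and alveolar epithelium that passed were lower in Brown Norway. Of 14 surfactant and alveolar type II genes, 0 were higher and 2 lower (7.99% and 7.25% over all probes), with a median of -0.12. Sftpa1, the main surfactant collectin, stood at 13.85, 13.49, 14.09 and 14.02 in Brown Norway and at 14.61, 14.52, 14.41 and 14.38 in Lewis, 1.53-fold lower (log2 -0.62, SE 0.12, adjusted p = 0.000686). Cds1, a phospholipid synthesis enzyme, was lower by 0.58 on the log2 scale. Sftpc and Sftpb, the surfactant proteins that spread the film, did not pass (differences of -0.15 and -0.08). Among 16 alveolar type I genes 1 was lower, Vegfa, the growth factor that supports the capillary bed (log2 -0.58, SE 0.17), which is also made by other cells, and Ager and Aqp5, 2 defining genes of these cells, did not pass at -0.11 and -0.76. The median of the type I list was -0.19, and its mean level lay between 11.20 and 11.33 on the Brown Norway arrays and between 11.46 and 11.59 on the Lewis arrays. Of 11 club cell genes 0 passed in limma, 3 were lower at an unadjusted p under 0.05, and the median was -0.22. The mean level of the club cell list lay between 11.16 and 11.42 in Brown Norway and between 11.50 and 11.77 in Lewis, again without overlap. Such separation was not particular to epithelial lists. The lung mesenchyme list, for example, lay between 10.66 and 10.68 in Brown Norway and between 10.72 and 10.76 in Lewis. Scgb1a1, the secreted marker of club cells, read between 15.98 and 16.04 on each array, at the top of the scale, so its difference of -0.03 is no measure of these cells. Of 17 genes of ciliated airway cells 4 were lower, led by Dynlrb2, a dynein light chain (-0.69), and Tekt4, of the axoneme (-0.38), with Ccdc39 and Spata18 at -0.26 and -0.21. All 7 calls of this paragraph were lost under median scaling, under which the differences of Sftpc, Scgb1a1 and Ager turned positive at 0.11, 0.17 and 0.13.

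The matrix of the growing septa showed changes in single genes in both directions. Of 35 genes of elastic fibres and collagens, 4 were higher and 2 lower (7.99% and 7.25% over all probes), with a median of 0.02. Col3a1, a fibrillar collagen of lung and vessel walls, stood at 14.53, 14.32, 14.45 and 14.38 in Brown Norway and at 13.29, 13.17, 12.86 and 13.12 in Lewis, 2.48-fold higher (log2 1.31, SE 0.20, adjusted p = 2.11e-05). Its Fisher mean of 13.05 lay at the level of Lewis. Sparc, a collagen-binding glycoprotein, went the other way, at 14.40 to 14.53 against 15.18 to 15.52 (log2 -0.81, SE 0.18, adjusted p = 0.00188). The microfibril gene Mfap5 was 1.94-fold lower (log2 -0.96, SE 0.25), with the call lost under median scaling, and Mfap2 1.28-fold higher, with the call lost without any of 6 single arrays. Elastin itself (Eln) did not pass, at -0.22, and had a positive difference of 0.04 under median scaling. Of 22 matrix proteases and inhibitors 1 was higher and 3 lower, among them Timp2, an inhibitor of metalloproteinases (-0.56), whose call was lost under median scaling, and Ctsl, whose difference of -0.20 turned to 0.07 there.

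Among growth factor and morphogen genes 2 of 44 were higher and 6 lower (7.99% and 7.25% over all probes), with a median of -0.02. Bmpr2, the receptor whose loss causes pulmonary arterial hypertension in people, lay between 11.84 and 12.13 on the Brown Norway arrays and between 12.71 and 13.16 on the Lewis arrays, with no overlap. It was 1.95-fold lower (log2 -0.96, SE 0.14, adjusted p = 5.14e-06), and its call held in each alternative. Hhip, an inhibitor of hedgehog signalling from the mesenchyme list, was 1.59-fold lower (-0.67), and Lpl, the lipoprotein lipase of lipofibroblasts, 1.67-fold lower (-0.74, adjusted p = 1.04e-05), both with calls lost under median scaling. The count of lower growth factor genes fell to 3 without Lewis replicate 3 and to 1 under median scaling. Of 12 retinoid genes 2 were higher, Cyp26b1, which breaks down retinoic acid (log2 0.78, call lost without Brown Norway replicate 2 or 4 or Lewis replicate 1), and Aldh1a2, which makes it (log2 0.31, SE 0.09, adjusted p = 0.0125).

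Genes of vessels and of airway tone passed in both directions. Of 22 endothelial genes 2 were higher (7.99% over all probes), Lyve1 and Vwf, the clotting factor carrier (log2 0.42, call lost without any of 7 single arrays), and 2 were lower (7.25% over all probes). Edn1, the vasoconstrictor endothelin, stood at 9.95, 9.52, 10.18 and 10.13 in Brown Norway and at 10.90, 10.59, 10.65 and 11.70 in Lewis, 2.02-fold lower (log2 -1.01, SE 0.26, adjusted p = 0.00681). Its call was lost within the shared slide (log2 -1.04, adjusted p = 0.0503) and under median scaling. Cdh5, the junction protein of endothelium, was 1.30-fold lower. Of 24 genes of airway contraction 2 were higher and 5 lower, among them Rock2, the kinase that keeps smooth muscle contracted (-0.84), Plcb1 (-0.43) and Rgs2, which dampens contractile receptors (-0.41), and the 5 lower calls were lost under median scaling. Kcnmb1, one of the higher pair, differed by 0.08 with overlapping groups.

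Immune genes outside the RT1 region were split. Of 24 macrophage genes 2 were higher and 4 lower (7.99% and 7.25% over all probes), with a median of -0.04. Cd68, a lysosomal protein of macrophages, stood at 10.15, 10.60, 10.38 and 10.40 in Brown Norway and at 11.32, 10.99, 10.82 and 11.08 in Lewis (log2 -0.67, SE 0.14, adjusted p = 0.000796). Mrc1, the mannose receptor of alveolar macrophages, was lower by 0.62 and Cybb, the phagocyte oxidase, by 0.49, while Trem2, a lipid receptor of macrophages, was higher by 0.52. Cd68, Mrc1 and Cybb lost their calls under median scaling. The pan-leukocyte gene Ptprc did not pass (-0.19). Among 13 neutrophil genes Itgb2, the common chain of the leukocyte integrins, was 1.54-fold higher (log2 0.62, SE 0.06, adjusted p = 9.5e-09) and Cd177 1.52-fold higher, the latter resting on Brown Norway replicate 2 at 9.73, without which the call was lost. Of 14 T cell genes 0 passed in limma, adjusted or unadjusted.

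The mast cell genes that passed went in both directions. Cma1, the mast cell chymase, stood at 9.59, 9.35, 9.43 and 9.71 in Brown Norway and at 8.48, 8.57, 8.77 and 8.78 in Lewis, 1.82-fold higher (log2 0.87, SE 0.23, adjusted p = 0.00953). Kit, the receptor of the growth factor that keeps mast cells alive, was 1.67-fold lower (log2 -0.74, SE 0.14, adjusted p = 0.000293), with arrays at 9.02 to 9.15 against 9.51 to 10.24, and its call was lost under median scaling. The protease Mcpt10 was higher by 0.28, and Mcpt1, detected on 0 Lewis arrays, was at least 1.09-fold higher. In all, 3 of 13 genes of mast cells, basophils and eosinophils were higher and 1 lower (7.99% and 7.25% over all probes). Of the 13 differences 11 were positive, beside 48% over all tested probes, and the median was 0.04. The mean level of the list lay between 8.68 and 8.72 in Brown Norway and between 8.57 and 8.65 in Lewis, without overlap. That separation rested on Cma1, the gene with the highest difference of the list, so it is no result about the list as a whole. In the type 2 response list, the arm of immunity behind allergy, 1 of 18 genes was higher (Il9r, at least 1.10-fold, with 0 Lewis arrays detected) and 1 lower (Ccl17, by 0.10). Il33, an epithelial alarmin that starts such responses, did not pass (0.29, with overlapping arrays).

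Single genes of complement and of the interferon response passed in both directions. Of 26 genes of complement and coagulation 1 was higher and 4 lower (7.99% and 7.25% over all probes). C1s, the protease that opens the classical pathway, stood at 9.44, 9.55, 9.16 and 9.34 in Brown Norway and at 10.57, 11.05, 10.33 and 10.57 in Lewis, 2.40-fold lower (log2 -1.26, SE 0.20, adjusted p = 3.07e-05). C6, of the membrane attack complex, was 2.01-fold lower (SE of the log2 difference 0.13, adjusted p = 6.22e-07), and C1r, the partner of C1s, 1.35-fold lower with a call lost under median scaling. Of 32 interferon response genes 1 was higher (Psmb8) and 4 lower. Ifi47, an interferon-induced GTPase, was detected on 0 Brown Norway arrays and 4 Lewis arrays and was at least 1.76-fold lower (adjusted p = 2.11e-13), and Ifi44 was 1.64-fold lower (log2 -0.71), with the call lost under median scaling. The interferon list had a median of -0.002, with 6 higher and 6 lower at an unadjusted p under 0.05, and 5 higher and 4 lower passed without both arrays that resembled another age.

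In xenobiotic and oxidant defence, 4 of 48 genes were higher and 8 lower (7.99% and 7.25% over all probes), with a median of -0.08. Nqo2, a quinone reductase, stood at 9.97, 9.95, 9.80 and 9.97 in Brown Norway and at 8.69, 8.65, 8.61 and 8.59 in Lewis, 2.44-fold higher (log2 1.29, SE 0.11, adjusted p = 6.28e-10). Sult1a1, a phenol sulfotransferase, was 2.43-fold higher (log2 1.28, SE 0.18), and Lewis replicates 1 to 4 read 9.79, 10.15, 10.37 and 10.65 beside 11.36 to 11.72 in Brown Norway. Both had Fisher means, 9.96 and 11.52, at the Brown Norway level. Gstm1, a glutathione transferase studied in human asthma, was 1.90-fold lower, at 10.07, 10.45, 10.44 and 10.45 against 11.24, 11.39, 11.16 and 11.32 (log2 -0.93, SE 0.12, adjusted p = 1.46e-06). Sod3, the superoxide dismutase of the lung matrix, was 2.03-fold lower (log2 -1.02, SE 0.32), a call lost under median scaling and without any of 4 single arrays. The number of lower members rose to 17 when only the 8 arrays entered the fit, and fell to 2 under median scaling.

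The lists of ribosomal and mitochondrial genes held a few large differences, and their medians were small. Of 57 genes of the cytosolic ribosome 11 were higher and 1 lower (7.99% and 7.25% over all probes), with a median of 0.07. Of the 57 differences 45 were positive, beside 48% over all tested probes. The mean level of the list lay between 13.77 and 13.85 in Brown Norway and between 13.46 (replicate 3) and 13.705 in Lewis, without overlap. That separation rested on Rpl30, whose difference of 4.99 entered the mean, so it is no result about the list as a whole. Rpl6 read 15.69 to 15.70 in Brown Norway and 14.63 to 14.78 in Lewis (log2 0.99, adjusted p = 1.85e-18). Its Brown Norway arrays lay near the top of the scale, where quantile normalisation gives equal ranks equal values, so its small spread is no measure of precision. The count of higher ribosomal genes was 5 without Lewis replicate 3 and 4 under median scaling. Of 47 genes of oxidative phosphorylation 2 were higher, Ndufaf5 and Ndufb2. Of 26 genes of hypoxia and glycolysis Bnip3 was higher and 5 were lower, including Pdk1, which turns pyruvate away from mitochondria (-0.68, SE 0.14), and Ldha, which makes lactate (-0.47, SE 0.12), and the 5 lower calls were lost under median scaling.

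**Figure D4:**
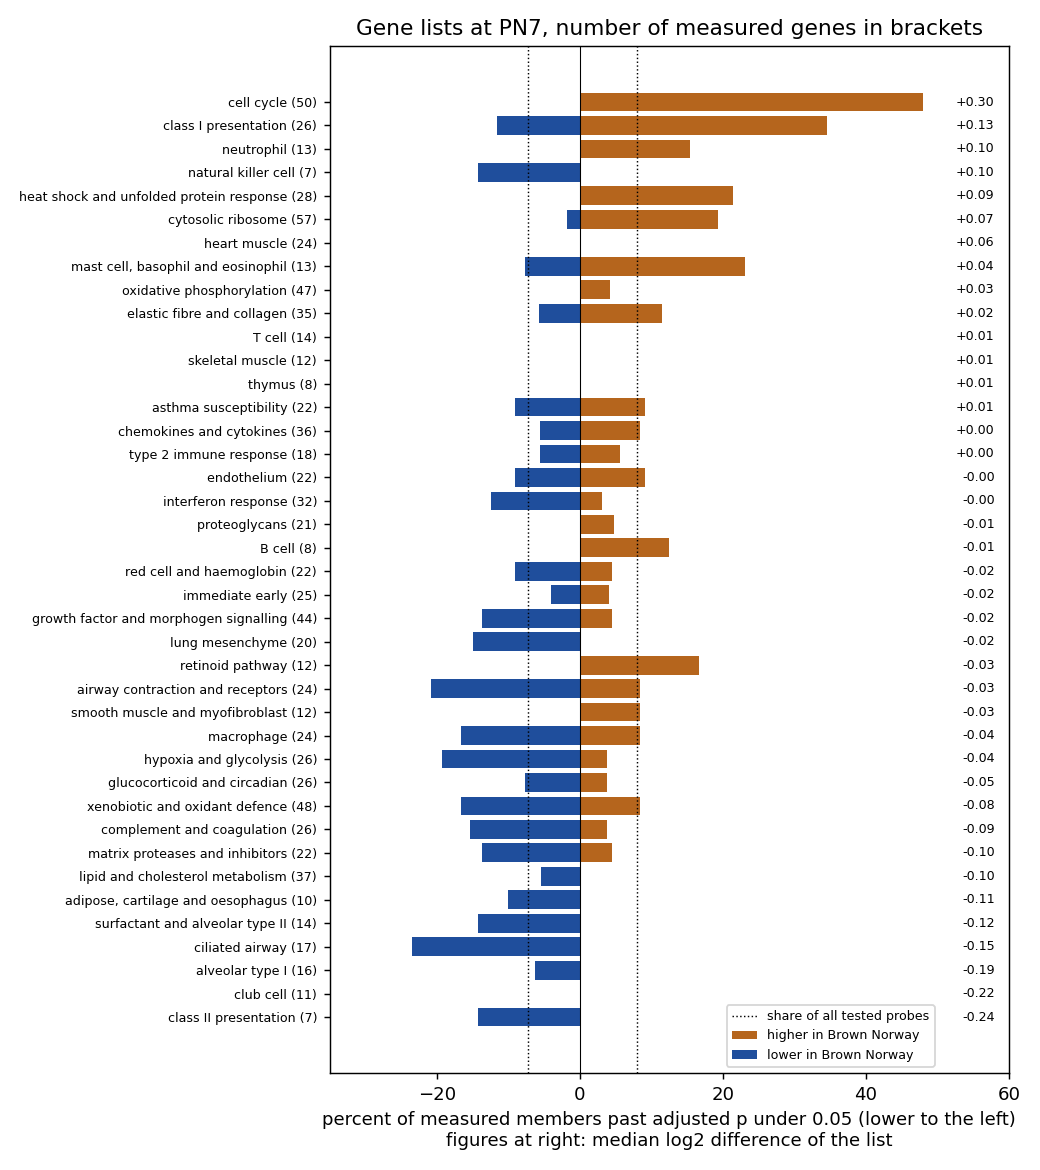
Percent of measured members of each of the 40 gene lists that were higher (bars to the right) or lower (bars to the left) in Brown Norway than in Lewis at PN7 with an adjusted p under 0.05, 4 arrays per group; dotted lines give the shares over all tested probes, 7.99% higher and 7.25% lower, and the numbers at the right give each list's median log2 difference. The cell cycle bar is the longest, at 24 of 50 genes, and the club cell, T cell, heart muscle, skeletal muscle and thymus lists have no bar.

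Lists of tissues that can come along when a lung is removed gave 1 call at PN7. Of 24 heart muscle, 12 skeletal muscle and 8 thymus genes 0 passed in limma in either direction, also 0 at an unadjusted p under 0.05, and the mean level of the heart list lay between 9.27 and 9.93 in Brown Norway and between 9.01 and 9.98 in Lewis. Of 10 genes of adipose tissue, cartilage and oesophagus 0 were higher and 1 was lower, Pparg, a factor of fat cells that lung cells also express (log2 -0.27, SE 0.08), and the median was -0.11. Of these 10 differences 0 were positive, beside 48% over all tested probes, and the lowest was -1.56. The mean level of that list lay between 8.65 and 9.005 in Brown Norway and between 8.79 and 9.28 in Lewis. The part of such tissue in the strain differences was not tested. Of 22 genes of red cells 1 was higher and 2 lower. Hbb differed by 0.01 at levels of 16.07 to 16.11, close to the top of the scale, where an array can show little difference.

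The strain difference at PN7 was then set against that at PN1 and PN14 by testing the change of the difference itself. It differed from PN1 for 2005 probes (17.7%), in the direction of higher Brown Norway at PN7 for 1224 (10.8%) and of lower for 781 (6.89%), and from PN14 for 383 probes (3.38%), 204 (1.8%) and 179 (1.58%). The strains themselves differed for 3511 probes at PN1 (31%) and for 1545 at PN14 (13.6%). Most arrays of each age shared a slide, with both strains on it. In Brown Norway, the array labelled PN1 replicate 5 and that labelled PN14 replicate 3 each resembled the age of the other, with correlations to the mean of their own group of 0.974 and 0.975 and to that of the other of 0.996 and 0.994. Without both, 3110 probes differed from PN1 and 557 from PN14. Heart genes were high on some Brown Norway PN1 arrays, where their mean level spanned 9.52 to 12.41 beside 8.73 to 9.66 in Lewis PN1, and the part of this in the PN1 comparison was not tested. The count against PN14 was 211 without Brown Norway replicate 2, 253 without replicate 4 and 255 without Lewis replicate 1.

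The cell cycle list turned with age. At PN1, 46 of its 50 genes were lower in Brown Norway (17.7% of all probes were) and 0 higher, with a median of -0.73. At PN14, 2 were higher and 0 lower (6.73% and 6.9% of all probes were), with a median of 0.10. The change from PN1 to PN7 passed for 46 members, all towards higher Brown Norway, and that between PN14 and PN7 for 1. Without both arrays that resembled another age, 46 and 3 passed. The chaperone list of 28 genes changed in both directions. At PN1, 7 members were higher and 11 lower (13.3% and 17.7% of all probes were), with a median of -0.14, beside 6 and 0 at PN7. From PN1 to PN7 the difference rose for 11 members and fell for 3 (10.8% and 6.89% of all probes). Creld2, which acts in the endoplasmic reticulum, went from -1.33 at PN1 to 0.46 at PN7 and -0.23 at PN14.

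Both changes passed in the same direction, together with a strain difference at PN7, for 59 probes towards higher and 34 towards lower Brown Norway. Only probes with a full gene symbol that were detected on each array of either PN7 group were counted. Over all 11339 tested probes, 17.7% changed from PN1 and 3.38% from PN14, each taken alone. The tests against PN1 and PN14 share the PN7 arrays. Tgfb1i1, a focal adhesion adaptor that smooth muscle and myofibroblasts express, stood at 9.70, 9.42, 9.80 and 9.40 in Brown Norway PN7 and at 8.38, 8.31, 8.37 and 8.30 in Lewis PN7, 2.36-fold higher (log2 1.24, SE 0.22, adjusted p = 9.94e-05). Its differences at PN1 and PN14 were -0.05 and -0.07 and did not pass, and the changes had adjusted p-values of 0.00406 and 0.0148. Cxcl12, the chemokine that retains leukocytes and guides vessels, stood at 12.09, 12.12, 12.05 and 12.09 against 11.47, 11.52, 11.47 and 11.53 at PN7 (log2 0.59, SE 0.16, adjusted p = 0.00914), and was lower in Brown Norway by 0.43 at PN1 and by 0.66 at PN14. Mean Lewis levels of Cxcl12 were 11.67, 11.50 and 12.28 at PN1, PN7 and PN14, and Brown Norway means were 11.25, 12.09 and 11.62. The morphogen Bmp4 followed the same order of signs, at -0.73, 0.43 and -0.29, but its groups overlapped at PN7 and its call there was lost without any of 5 single arrays.

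Lyve1 and Umps were higher in Brown Norway at every age and further apart at PN7, at 2.06 and 1.82 beside 1.27 and 1.23 at PN1 and 1.24 and 1.23 at PN14. Rtel1, a helicase that protects telomeres, was lower at every age and least so at PN7, at -1.67, -0.80 and -1.39. In the opposite direction, Cirbp, the cold-inducible RNA-binding protein, stood at 10.54, 10.20, 10.52 and 10.51 in Brown Norway PN7 and at 11.32, 11.39, 11.12 and 11.03 in Lewis PN7 (log2 -0.77, SE 0.15, adjusted p = 0.000439), and was higher in Brown Norway by 0.68 at PN1 and 0.67 at PN14. Its changes had adjusted p-values of 2.24e-05 and 0.00022. Ank1, the ankyrin of the red cell membrane, Alkbh3, which repairs alkylated DNA, and Csnk1d, a kinase of the circadian clock, showed the same reversal, at -0.44, -0.38 and -0.37 at PN7 beside 0.50, 0.59 and 0.35 at PN1 and 0.39, 0.34 and 0.44 at PN14. Kdsr, of sphingolipid synthesis, was lower by 0.79 at PN7 with differences of 0.19 and -0.11 at the other ages, which did not pass. The PN7 calls of Cirbp, Ank1, Alkbh3, Csnk1d and Kdsr were lost under median scaling, and of the 32 changes of the 16 named genes 7 passed there.

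**Figure D5:**
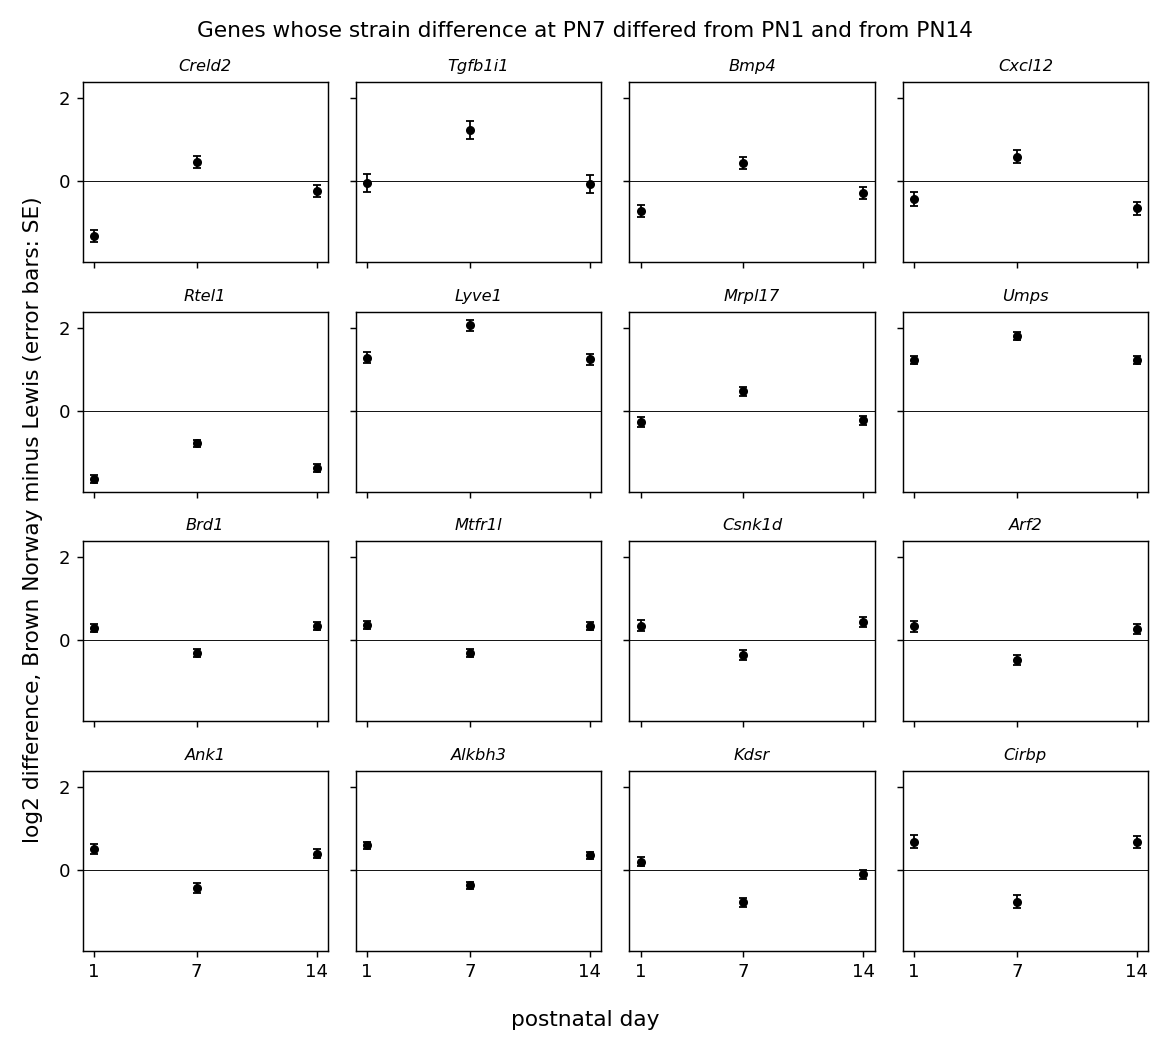
Log2 difference of Brown Norway minus Lewis (vertical axis, error bars SE) by postnatal day (horizontal axis) for the 16 genes named by the size of their smaller change. Creld2, Tgfb1i1, Bmp4, Cxcl12, Rtel1, Lyve1, Mrpl17 and Umps peak at PN7, and Brd1, Mtfr1l, Csnk1d, Arf2, Ank1, Alkbh3, Kdsr and Cirbp dip there. A peak or dip at PN7 was a condition for choosing these genes.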

How the data were processed

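Whole-lung RNA of the 8 arrays described above was measured with the rest of the series on 36 one-colour beadchips. Per the file headers, the authors deposited 3 measures of each of 22226 probes that are used here, with no normalisation: the raw signal (a linear intensity), its detection p-value, and the bead count behind it. The authors also deposited log2 values, made with lumi per the submitters' processing notes; their settings and the way the detection p-values were made are not given in the sources used here. A further 36 columns of bead spread were not used. The number of arrays limits the precision.

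Intensities were corrected by normexp with the detection p-values and an added offset of 16, quantile normalised and put on the log2 scale (neqc, limma 3.58.1, R 4.3.3, tables read by version 1.17.8 of data.table). The offset shrinks folds of dim probes. Probes were kept where 3 arrays or more had a detection p under 0.01, which left 11339 and removed 10887. GEO's platform annotation named 13192 probes, several genes for 0 and none for 9034; 13151 matched the RefSeq gene table by identifier. For a gene with several probes, the brightest stood for it in lists; no named gene had a second tested probe.

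Each group of strain and age had its own mean in a fit over the 36 arrays with lmFit and eBayes (28.6 degrees of freedom), and the strain difference at PN7 and its changes from PN1 and PN14 were contrasts. P-values are 2-sided and carry a Benjamini-Hochberg adjustment over all tested probes. Where the dim group was detected on 0 arrays, a fold is a bound. The named genes were the 15 highest and 15 lowest that passed, with non-overlapping groups and detection on each array of either group, up to 4 passing members of each of 40 lists, 8 genes in each direction by the smaller of both changes, and 10 genes given whatever their values; other list members named beside a count were chosen after their values were seen. The members, lists and rules were chosen with earlier results of these data known. The script was tested on simulated data. Alternatives were median scaling, the deposited log2 values, other offsets and filters, fewer arrays in the fit, the slide or replicate as a block, array weights and each array left out. Figures were drawn with matplotlib 3.10.9.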

Additional observations from a re-analysis of the deposited data

Results flagged for a closer look

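Of 268 groups of 4 arrays examined among the named genes, 19 had an array set apart from the other 3 by Dixon's criterion, where chance gives about 1 in 20 groups. In Brown Norway PN7 these were Kif20a (10.85) and Tekt4 (8.96) on replicate 2, which was high in both, and Cirbp (10.20) on the same array, which was low. Sfrp2 (9.29) was high and Gstm1 (10.07) and Scgb1a1 (15.98) were low on replicate 1. Timp2 (10.46) was high and Nqo2 (9.80) low on replicate 3. Gstp1 (9.42), Rpl6 (15.70) and Hbb (16.11) were high and C1r (12.01) low on replicate 4. In Lewis PN7, Plcb1 (9.21) was high and Manf (11.13) and Rps26 (14.61) were low on replicate 3, Tbx4 (8.93) was high and Spata18 (8.34) and Scgb1a1 (16.01) were low on replicate 1, the array on the other slide, and Mrc1 (10.55) was low on replicate 2. The spreads of Scgb1a1, Rpl6 and Hbb, which lie near the top of the scale, were below 0.1 log2 units.

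The 16 genes named by the smaller of both changes are given here. Some other named genes, Hspa5 and Pdia4 among them, also passed both interaction tests. The changes from PN1 and from PN14 were 1.29 and 1.31 for Tgfb1i1, 1.02 and 1.25 for Cxcl12, 0.79 and 0.82 for Lyve1, and 1.17 and 0.72 for Bmp4. They were 0.75 and 0.71 for Mrpl17, a mitochondrial ribosomal gene, 1.79 and 0.70 for Creld2, 0.59 and 0.59 for Umps, and 0.87 and 0.59 for Rtel1. In the other direction they were -1.45 and -1.44 for Cirbp, -0.93 and -0.82 for Ank1, -0.82 and -0.76 for Arf2, a small GTPase of vesicle traffic, and -0.98 and -0.73 for Alkbh3. They were -0.72 and -0.81 for Csnk1d, -0.98 and -0.68 for Kdsr, -0.69 and -0.65 for Mtfr1l, and -0.60 and -0.66 for Brd1, a chromatin reader.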

How the results depend on the processing

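At PN7, 58 of the named genes passed under each setting run. Under median scaling, which shifted the median of all differences to 0.097, the counts were 940 at PN7, 507 for the change from PN1 and 21 for that from PN14, and the differences of Ctsl (0.068), Sftpc (0.11), Scgb1a1 (0.17), Ager (0.13) and Eln (0.035) turned positive; the cause was not tested. In the deposited log2 values 378 probes were at least 2-fold apart; the cause was not tested. Without both arrays resembling another age 3110 probes changed from PN1, and 3096 when Lewis PN7 replicate 3 was left out as well, a setting chosen after seeing the data. Array weights gave 834 for the change from PN14. Leaving out single arrays gave 1344 to 1699 probes at PN7, 94 to 99 at least 2-fold apart, 1695 to 1859 changed from PN1 and 211 to 442 from PN14, and Hbb between -0.001 (without Lewis replicate 4) and 0.013. Within the shared slide 1893 probes differed, 1327 of them among the 1728, and 93 were at least 2-fold apart; no change with age could be fitted there. Deviations of same-numbered arrays correlated at -0.138, 0.078, -0.122 and 0.15, which shows no pairing by number, though 4 arrays a group cannot exclude one. With the replicate block the counts were 1794, 97, 2577 and 468. Probes near background give only bounds, and with 4 arrays a group small differences of spread-out genes are out of reach.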

Other observations

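Of 37 genes of lipid and cholesterol metabolism 0 were higher and 2 lower in limma at PN7 (2 and 4 at an unadjusted p under 0.05), and of 26 glucocorticoid and circadian genes 1 was higher and 2 lower, beside 7.99% and 7.25% over all probes. Apoe, the lipoprotein that carries cholesterol, stood at 10.64, 10.47, 10.47 and 10.72 in Brown Norway and at 11.26, 11.55, 11.09 and 11.91 in Lewis (log2 -0.88, SE 0.29, limma adjusted p = 0.0357), and the call was lost without any of 6 single arrays. Klf9, a glucocorticoid-induced transcription factor, was 1.66-fold lower (log2 -0.73, SE 0.17, adjusted p = 0.00211), with Brown Norway arrays at 11.78 to 11.98 and Lewis arrays at 12.36 to 12.99; at PN1 its difference was 1.88. Dbp, an output gene of the circadian clock, was lower by 0.23 (SE 0.04). Pparg, which drives fat storage and the lipofibroblast programme, was 1.21-fold lower. Klf9, Dbp, Pparg and Apoe lost their calls under median scaling. Jund, a subunit of the AP-1 factor, was 1.37-fold higher (log2 0.45, SE 0.10, adjusted p = 0.00169), with no overlap between 15.28 to 15.45 and 14.62 to 15.02.

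Among signalling genes, Tnfrsf1a, the main receptor for tumour necrosis factor, was 1.26-fold higher in Brown Norway (log2 0.34, SE 0.07, adjusted p = 0.00159), and Csf1, the growth factor of macrophages, 1.24-fold higher (log2 0.32, SE 0.07, adjusted p = 0.0031). Blnk, an adaptor of the B cell receptor, was detected on 2 Brown Norway arrays and 0 Lewis arrays, with levels of 8.17 to 8.22 and 8.00 to 8.05. Gzma, a granzyme of killer cells, passed at -0.09 although it was detected on 0 arrays of either strain, and its direction has no measured basis.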
